A study of Rattus norvegicus with 2 samples.

Results

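The insulin-like growth factor (IGF) axis was followed through 9 genes, which were chosen by name from a list: the ligands *Igf1* and *Igf2*, the receptor *Igf1r*, and the binding proteins *Igfbp2* to *Igfbp7*. All 9 were found in both count matrices, among 32883 listed genes. IGF-I and IGF-II are secreted peptides related to insulin that act through the type 1 IGF receptor, a tyrosine kinase that signals through insulin receptor substrates, PI3K and AKT. The binding proteins hold most of the extracellular IGF, and they either keep it from the receptor or deliver it, depending on proteases and on the matrix. In the brain, IGF signalling is known for its part in cell growth, myelination and the timing of puberty, and it is known to interact with estradiol signalling in hypothalamic glia.

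Hypothalamic tissue that contained the anteroventral periventricular and arcuate regions came from female Sprague Dawley rats at PND 29 (4 weeks of age). SC300 rats carried a silicone capsule holding 300 µg of estradiol benzoate (EB) in sesame oil from the day of birth, and Control rats, which the labels call intact, carried a capsule with oil by the methods. Dissociated tissue of 3 rats per group went into 1 pooled 10x Genomics 3′ library, so that 1 Control and 1 SC300 library were compared. No value below therefore has an error between rats, no test was made, and every interval covers counting error only.

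Cells with at least 200 detected genes numbered 4296 in Control (51382276 UMIs, the counted RNA molecules, with a median of 7986 per cell) and 4379 in SC300 (56390355 UMIs, median 8182). They formed 22 clusters, of which 21 were named into 13 classes from marker genes. These names were rebuilt here, carry the ending "-like" and need not match those of the study. The 9 genes and a further list of their pathway were kept out of the genes that shaped the clusters. The neuron-like clusters were led by hypothalamic peptide genes such as *Oxt*, *Pmch*, *Agrp* and *Npy*. Only 7 barcodes were shared by both sets of cells, and 70 Control and 73 SC300 barcodes called as doublets stayed in. Levels are given as CPM, the UMIs of a gene scaled to a common total of UMIs in each class and library, and differences as the log2 ratio of SC300 over Control. A ratio was called past 1.5-fold where it exceeded that size in either direction, the gene had 50 UMIs or more in the class over both libraries, and the 95% interval lay wholly on 1 side of 0.

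*Igfbp2* and *Igfbp5* are direct neighbours on chromosome 9 of the RefSeq rat assembly GRCr8, with no annotated gene between them. The 250 bases before the start of each gene are shown because these neighbours differed in opposite directions in astrocyte-like cells, as described further on. The *Igfbp2* sequence lies at chr9:81864561-81864810 on the plus strand and the *Igfbp5* sequence at chr9:81914188-81914437 on the minus strand, both written 5′ to 3′ along their own gene. Capitals mark matches on either strand to any of 3 motifs: GGGCGG, which is the GC box bound by the SP factors, then TATAAA, which is the core promoter box, and GGTCA, which is the half-site of an estrogen response element.
Igfbp2: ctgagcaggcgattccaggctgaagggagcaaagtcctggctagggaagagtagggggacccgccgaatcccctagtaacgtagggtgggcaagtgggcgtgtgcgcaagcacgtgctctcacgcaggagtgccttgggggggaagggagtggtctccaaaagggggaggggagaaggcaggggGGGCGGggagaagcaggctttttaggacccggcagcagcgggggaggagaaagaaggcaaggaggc
Igfbp5: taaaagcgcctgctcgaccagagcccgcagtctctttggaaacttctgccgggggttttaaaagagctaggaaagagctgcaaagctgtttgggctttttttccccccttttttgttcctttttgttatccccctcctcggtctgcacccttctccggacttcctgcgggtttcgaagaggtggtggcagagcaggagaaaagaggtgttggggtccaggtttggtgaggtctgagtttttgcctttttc
The *Igfbp2* sequence held 1 GC box and no other motif, and the *Igfbp5* sequence held none of the 3. In all 33469 RefSeq upstream sequences of this length, 30.5% held the GC box, 12.9% the TATA box and 35.4% the half-site. GC content was 64% before *Igfbp2* and 51.6% before *Igfbp5*. Of the 10 upstream sequences of the 9 genes, a half-site was found in 1, the more downstream of the *Igf2* starts, and a TATA box in that of *Igfbp4*. A match, or its absence from this window, is a description of letters only.

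The members came from different cells, as the plot of levels by class shows. *Igf1* was a gene of microglia-like, macrophage-like and mural cell-like cells, *Igf2* and *Igfbp2* of stromal cells, *Igf1r* of endothelial cell-like cells, and *Igfbp7* of mural and endothelial cells, while *Igfbp5* was spread over stromal, astrocyte-like, ependymal and neuron-like cells. *Igfbp3* was found in macrophage-like cells and in neuron-like cells, *Igfbp4* in macrophage-like cells, oligodendrocyte precursor-like cells and tanycyte-like cells, and *Igfbp6* in stromal cells and a few neurons. Taken over both libraries, the class with the highest level stayed the leading one in all alternatives for 6 of the 9 genes, and changed in at least 1 alternative for *Igf1*, *Igfbp3* and *Igfbp4*. The clearest differences between the libraries were a 2.48-fold higher *Igfbp2* level in SC300 astrocyte-like cells and a 3.23-fold lower *Igfbp5* level in SC300 tanycyte-like cells.

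**Figure D1:**
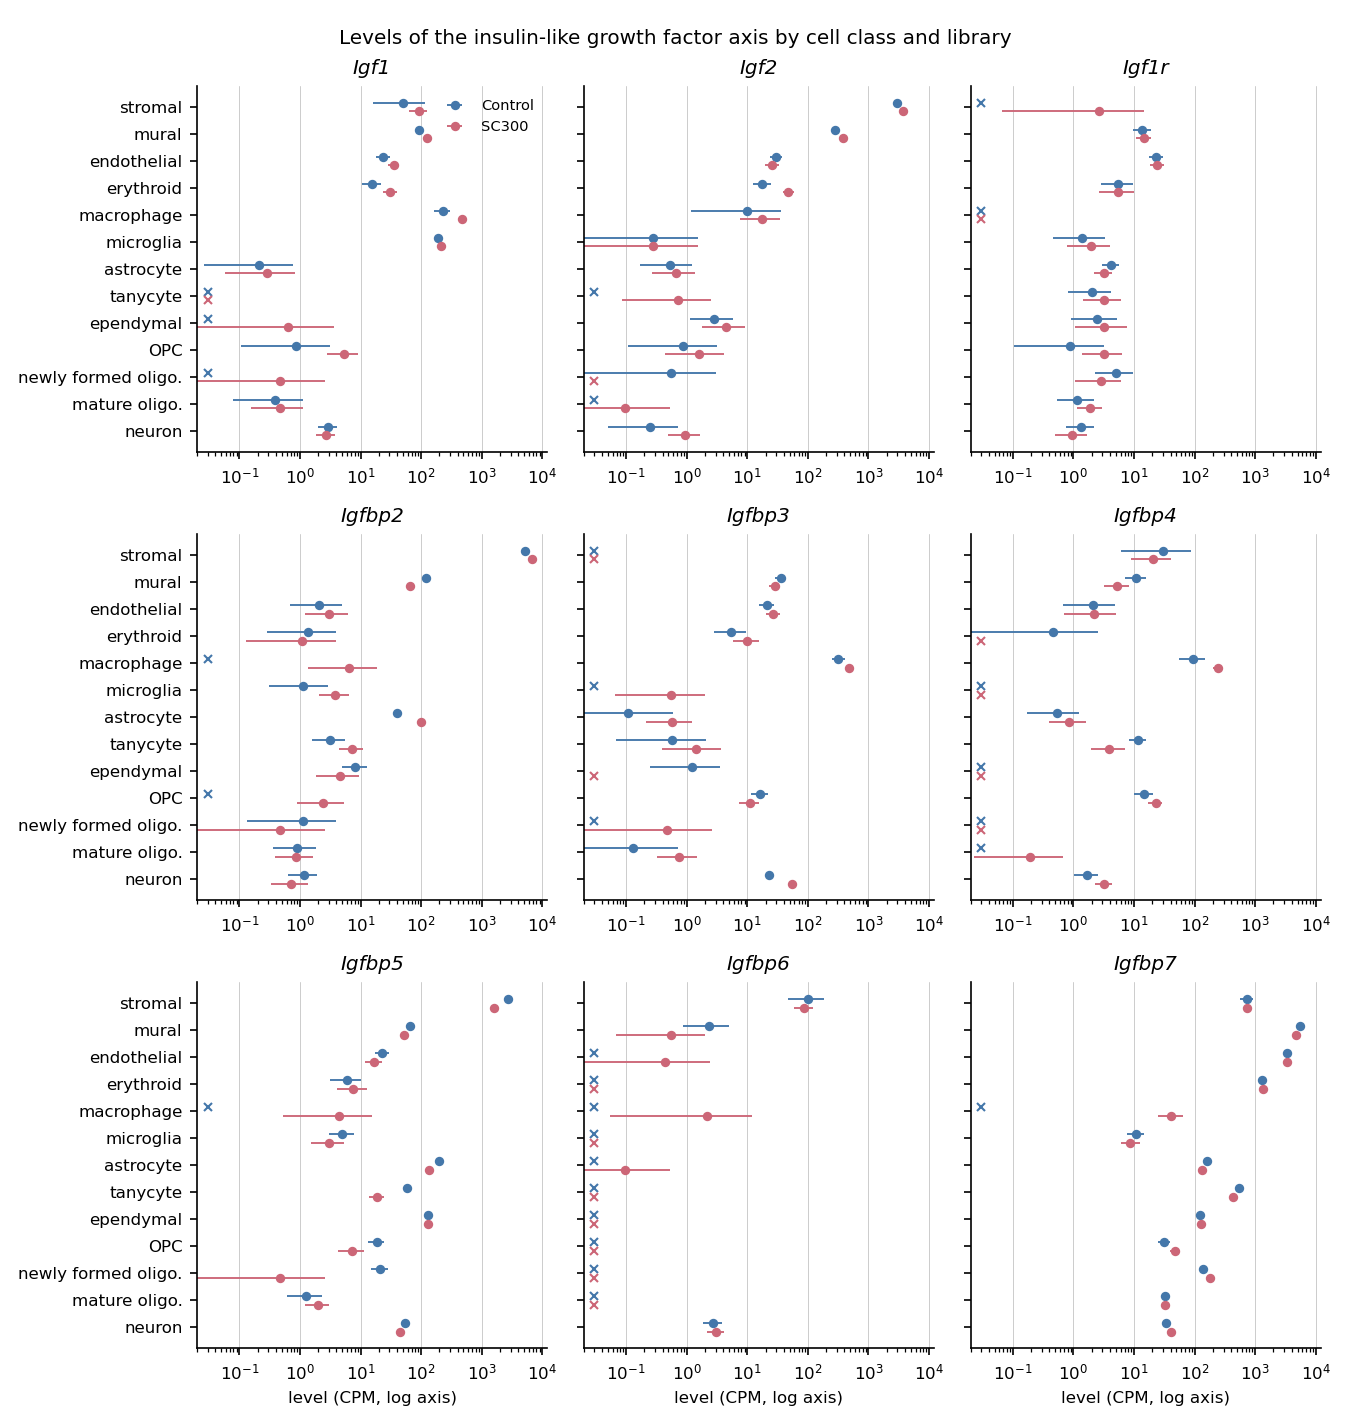
Level of each gene in CPM on a log axis (horizontal) in the 13 marker-named classes (vertical), with Control in blue and SC300 in red; bars are 95% Poisson intervals, which cover counting error only, crosses mark a count of 0, and intervals that reach below the axis are cut there. *Igf2* and *Igfbp2* peaked in the stromal class and *Igfbp7* in the mural class in both libraries, while *Igfbp6* had no UMI in most classes.

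*Igf1*, the ligand made under growth hormone control in liver and locally in brain, had its highest level in macrophage-like cells, with 226 CPM in Control and 466 CPM in SC300. Microglia-like cells followed with 189 and 209 CPM, and since they were far more numerous (527 and 507 cells against 24 and 53), they held 61.3% of all *Igf1* UMIs in Control and 46.2% in SC300. Mural cell-like cells, named by markers of the pericytes and smooth muscle of vessels, had 93.5 and 124 CPM. Endothelial cell-like cells had 23.8 and 35.4 CPM (0.57, 0.07 to 1.09). The mural class also carried endothelial markers, summed at 9977 CPM in Control and 9859 CPM in SC300, against 5337 and 5064 CPM of mural markers. *Cldn5* was at 4722 and 4886 CPM there, against 7429 and 7682 CPM in endothelial cell-like cells. The part of endothelial RNA in the levels of any member in the mural class was not tested. Neuron-like cells had 2.89 and 2.70 CPM, astrocyte-like cells 0.211 and 0.285 CPM, and no *Igf1* UMI was found in the 318 Control and 193 SC300 tanycyte-like cells.

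The *Igf1* level was higher in SC300 macrophage-like cells by 1.04 on the log2 scale (95% interval 0.58 to 1.54). Control had 12 of 24 cells with an *Igf1* UMI and SC300 had 42 of 53, which became 43.5% and 53.8% of cells after each cell was thinned to 2000 UMIs. Neuron-like cells, far deeper at medians of 25070 and 24230 UMIs against 9207 and 8183, had one in 3.25% and 4.70% of cells without thinning. The macrophage-like class was small and its makeup differed between the libraries. Its own macrophage markers summed to 4038 CPM in Control and 6584 CPM in SC300, and each of them was higher in SC300. Summed microglia markers stood at 2571 CPM in Control and 4990 CPM in SC300 there. Mature oligodendrocyte markers stood at 182 and 2713 CPM, astrocyte markers at 98.1 and 1069 CPM, and lymphoid markers at 883 and 221 CPM. Their part in the difference was not tested. Of 1746 genes with enough UMIs in this class, 33.6% were past 1.5-fold, so that such a ratio was common there. In microglia-like cells the ratio was 0.15 (−0.01 to 0.30) and in mural cell-like cells 0.41 (0.18 to 0.64), neither past 1.5-fold, against 5.26% and 4.94% of all genes that were. Within microglia, the cluster led by *Il1b* and *Ccl4* had 218 and 226 CPM and the cluster led by *Tmem119* and *P2ry12* 169 and 196 CPM. The remaining microglia cluster, led by *Aif1* and *Fcer1g* (117 and 100 cells), was shallow, with a median of 1701 UMIs. It had 90.0 and 156 CPM from 31 and 41 UMIs (0.79, 0.08 to 1.51), past 1.5-fold.

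*Igf2*, the imprinted ligand that is made in the adult brain mostly by meninges, choroid plexus and vessels, was at 2932 CPM in Control and 3680 CPM in SC300 stromal (fibroblast)-like cells. All 11 Control and 32 of 34 SC300 cells of this class had an *Igf2* UMI. The ratio within the class was 0.33 (0.15 to 0.51). Taken over all cells, *Igf2* stood at 22.5 and 53.0 CPM, a ratio of 1.23 (1.14 to 1.33), which became 0.73 (0.61 to 0.86) when the 11 and 34 stromal cells were left out. The number of such cells in a pooled dissociation cannot be told apart from how much meninges or vessel each piece of tissue brought.

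Mural cell-like cells had the next highest *Igf2* level, 283 CPM in Control and 382 CPM in SC300 (0.43, 0.30 to 0.56). The UMIs were concentrated in few cells. Of 730 Control UMIs, 464 lay in 7 of 166 cells with 20 or more, and of 1374 SC300 UMIs, 1092 lay in 6 of 176 cells. The 10 Control and 8 SC300 mural cells that carried 5 or more UMIs of the fibroblast genes *Dcn*, *Lum* and *Col1a1* stood at 1417 and 2482 CPM of *Igf2*. In the other 156 and 168 mural cells *Igf2* was at 131 and 84.8 CPM, a ratio of −0.63 (−0.87 to −0.39). The direction of the *Igf2* difference in mural cells therefore depended on 10 Control and 8 SC300 cells, and this split was chosen after the values were seen. Endothelial cell-like cells had 72 and 60 *Igf2* UMIs (−0.21, −0.73 to 0.30).

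Both ligands were also past 1.5-fold in the erythroid-like class, *Igf1* at 15.5 and 30.9 CPM (0.99, 0.36 to 1.65) and *Igf2* at 17.8 and 47.6 CPM (1.42, 0.86 to 2.01), where 8.78% of all genes were. Nearly all of these UMIs came from 1 of its 2 clusters, with 41 Control and 40 SC300 cells, which carried endothelial and mural markers beside haemoglobin genes: 33 of 34 and 55 of 57 *Igf1* UMIs, and 39 of 39 and 87 of 88 *Igf2* UMIs. The highest SC300 cell held 25 of the 88 *Igf2* UMIs and the next 20. Once genes that differed between the libraries were left out of the clustering, this cluster no longer belonged to the class, and 2 *Igf1* UMIs and 1 *Igf2* UMI remained.

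*Igf1r*, the receptor, was scarce in every class. Endothelial cell-like cells had 23.3 CPM in Control and 24.2 CPM in SC300. Mural cell-like cells, which also carried endothelial markers, had 13.6 and 14.5 CPM. Erythroid-like cells had 5.47 and 5.42 CPM, newly formed oligodendrocyte-like cells 4.97 and 2.83 CPM, and astrocyte-like cells 4.12 and 3.13 CPM, whereas neuron-like cells had 1.32 and 0.953 CPM. The intervals of erythroid, newly formed oligodendrocyte and astrocyte-like cells overlapped one another, so that these neighbours in the order did not differ beyond counting error. In all, 196 and 219 UMIs were counted, or 3.82 and 3.88 CPM over all cells (0.03, −0.26 to 0.31). None of the 3 classes with 50 UMIs or more was past 1.5-fold: the ratios were 0.05 (−0.51 to 0.61) in endothelial cells, 0.09 (−0.55 to 0.75) in mural cells and −0.40 (−1.11 to 0.31) in astrocytes. At this depth these intervals were wide, and a 1.5-fold difference in at least 1 direction lay inside the one of each of these classes.

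*Igfbp2*, a binding protein of glia and of meningeal cells that prefers IGF-II, was at 39.6 CPM in Control astrocyte-like cells (375 UMIs in 1088 cells) and at 98.4 CPM in SC300 astrocyte-like cells (1037 UMIs in 1281 cells). The Poisson intervals, 35.7 to 43.9 and 92.5 to 105 CPM, lay far apart, and the ratio was 1.31 (1.14 to 1.49). In this class 4.17% of 10104 genes were past 1.5-fold in either direction. Cells with an *Igfbp2* UMI made up 15.5% of Control astrocytes (13.4 to 17.8%) and 384 of the 1281 SC300 astrocytes (27.5 to 32.6%), at a median depth of 6818 and 6708 UMIs. After thinning to 2000 UMIs the shares were 6.78% and 14.4%. Mature oligodendrocyte-like cells were taken as background and were sequenced more deeply (medians 19970 and 20850). Without thinning they had a UMI in 0.543% and 1.30% of cells, and microglia-like cells in 0.569% and 1.97% of cells.

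The difference did not rest on few cells. Astrocytes with 2 to 4 *Igfbp2* UMIs numbered 58 in Control and 157 in SC300, those with 5 to 9 numbered 8 and 29, and those with 10 to 19 numbered 2 and 15. The 3 highest cells held 18.4% of UMIs in Control and 6.75% in SC300, and without them the ratio was 1.5. The ratio stayed past 1.5-fold in all 12 alternatives, between 1.22 and 1.65. Leaving out doublets removed no astrocyte-like cell, so that this alternative could not change the ratio.

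The 3 astrocyte-like clusters differed in their *Igfbp2* level. The cluster led by *Cldn10*, *Slc7a10* and *Etnppl* (478 and 614 cells) stood at 73.0 CPM in Control and 191 CPM in SC300 (1.39, 1.16 to 1.63). The larger cluster with *Acsbg1* and *Ntsr2* among its leading genes (559 and 617 cells) had 31.3 and 61.1 CPM (0.97, 0.71 to 1.23). The small cluster led by *Cryba4* and *Gfap* (51 and 50 cells) held 0 and 1 *Igfbp2* UMIs at a median depth of 19010 and 20260 UMIs per cell. Summed stromal markers were 2.75 and 3.70 CPM in the astrocyte-like class, and the part of UMIs from other cells in the *Igfbp2* difference was not tested.

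In stromal (fibroblast)-like cells *Igfbp2* was at 5118 CPM in Control and 6876 CPM in SC300 (0.43, 0.29 to 0.56), and 15.8% of all genes in this class of 45 cells were past 1.5-fold. These cells held 39.4% of *Igfbp2* UMIs in Control and 65.2% in SC300. When every class was summed, *Igfbp2* was at 25.5 and 72.2 CPM (1.5, 1.41 to 1.59), and without the stromal cells at 15.5 and 25.3 CPM (0.71, 0.58 to 0.84). In mural cell-like cells the level was 120 CPM in Control and 65.7 CPM in SC300 (−0.86, −1.11 to −0.61), opposite to the astrocytes. Of the 308 and 236 mural UMIs, 293 and 226 were in the 10 and 8 cells with fibroblast genes. The other mural cells had 6.60 and 3.18 CPM, from 15 and 10 UMIs, too few for a call.

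**Figure D2:**
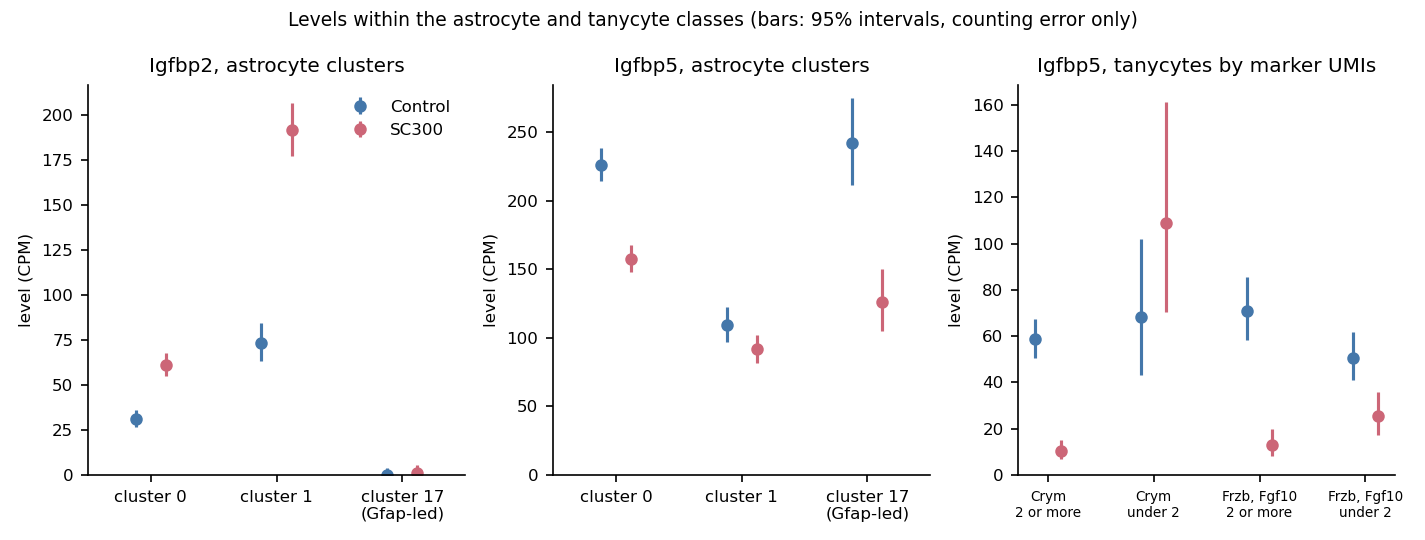
Level in CPM (vertical axes) of *Igfbp2* (left) and *Igfbp5* (middle) in the 3 astrocyte-like clusters and of *Igfbp5* in tanycyte-like cells split by UMIs of *Crym* or of *Frzb* and *Fgf10* (right), with Control in blue and SC300 in red and 95% Poisson intervals as bars. *Igfbp2* was higher in SC300 in clusters 0 (*Acsbg1*) and 1 (*Cldn10*) (61.1 against 31.3 CPM and 191 against 73.0 CPM). *Igfbp5* was lower in SC300 tanycytes in every split except those with under 2 *Crym* UMIs, where the intervals overlapped.

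*Igfbp5*, a matrix-binding member found in many neural classes, had ratios between −1.69 and −0.02 in its 8 classes with 50 UMIs or more. Of these, 3 were lower in SC300 past 1.5-fold, and the intervals of endothelial and ependymal cell-like cells included 0. In tanycyte-like cells, the glia that line the floor of the third ventricle, it was at 59.5 CPM in Control (209 UMIs in 318 cells) and at 18.4 CPM in SC300 (52 UMIs in 193 cells). The Poisson intervals were 51.7 to 68.2 and 13.8 to 24.2 CPM, and the ratio was −1.69 (−2.16 to −1.24). In this class 10.2% of 8237 genes were past 1.5-fold, more than in most classes. Cells with an *Igfbp5* UMI made up 26.4% (21.6 to 31.6%) of Control tanycytes and were 25 of 193 (8.56 to 18.5%) in SC300, or 7.41% and 3.23% after thinning. The background in mature oligodendrocyte-like cells was 1.90% and 2.39% without thinning, and median depth in tanycytes was 9818 and 10660 UMIs. The 3 highest cells held 21.5% of UMIs in Control and 42.3% in SC300. In all 12 alternatives the ratio stayed past 1.5-fold, between −2.64 and −1.42. At a resolution of 1.0 the class held the same numbers of cells and UMIs, so that this alternative could not change the ratio.

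Within the tanycyte-like class the *Igfbp5* level was read in cells split by tanycyte genes. Cells with 2 or more UMIs of *Crym* (263 and 160 cells) had 58.6 CPM in Control and 10.4 CPM in SC300 (−2.49, −3.13 to −1.90). Those with fewer (55 and 33 cells) had 68.1 and 109 CPM, from 23 UMIs in 4 cells and 25 UMIs in 6 cells (0.68, −0.20 to 1.56). Cells with 2 or more UMIs of *Frzb* and *Fgf10*, genes of tanycytes at the median eminence, had 70.9 and 13.1 CPM, and the others 50.7 and 25.4 CPM. These splits were chosen after the class values were seen. Of the tanycyte markers, *Crym* itself was at 2515 CPM in Control and 3422 CPM in SC300 and *Frzb* at 279 and 190 CPM. Summed ependymal markers were at 1299 and 1323 CPM, astrocyte markers were 1605 and 1400 CPM, and mural markers 567 and 1464 CPM, of which *Tagln* made up 546 and 1434 CPM. Endothelial markers were lower in SC300 at 76.9 and 35.5 CPM, with *Cldn5* at 33.6 and 3.90 CPM, as were erythroid markers at 72.3 and 16.3 CPM, and the part of these cells in the difference was not tested. Whether a different mix of tanycyte subtypes accounts for part of the *Igfbp5* difference was not tested.

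Astrocyte-like cells held the most *Igfbp5* UMIs, 1850 in Control and 1400 in SC300, or 196 and 133 CPM (−0.56, −0.66 to −0.46), just under 1.5-fold. The same 3 astrocyte clusters that were apart in *Igfbp2* had *Igfbp5* at 226 and 158 CPM (*Acsbg1* cluster), 109 and 91.8 CPM (*Cldn10* cluster) and 242 and 126 CPM (*Gfap* cluster). The neighbouring genes thus had opposite orders over these clusters in Control, though not in SC300, and opposite differences between the libraries in this class. The Control *Igfbp5* levels of the *Gfap* and *Acsbg1* clusters were close, from 232 and 1332 UMIs, so that their order was not settled beyond counting error. Ependymal cell-like cells, the ciliated lining of the ventricle, had 131 and 129 CPM of *Igfbp5* (−0.02, −0.28 to 0.24), and 6.46% of their genes were past 1.5-fold. Neuron-like cells had 53.7 and 44.6 CPM (−0.27, −0.43 to −0.10). Oligodendrocyte precursor-like cells had 18.4 and 7.27 CPM (−1.34, −2.22 to −0.51), from 42 and 18 UMIs of which 1 Control cell held 12. In this class 4.09% of all genes were past 1.5-fold.

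The remaining *Igfbp5* call, in stromal (fibroblast)-like cells, turned on single cells. The level was 2673 CPM in Control and 1584 CPM in SC300 (−0.76, −0.96 to −0.54), but 192 of the 269 Control UMIs came from 1 of 11 cells and 54 from another. Only 5 of the 11 Control and 15 of the 34 SC300 cells had any *Igfbp5* UMI, and without the 3 highest cells of each library the ratio turned to 4.93. In newly formed oligodendrocyte-like cells, 26 of the 38 Control UMIs lay in 1 cell against 1 UMI in SC300, too few UMIs for a call.

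**Figure D3:**
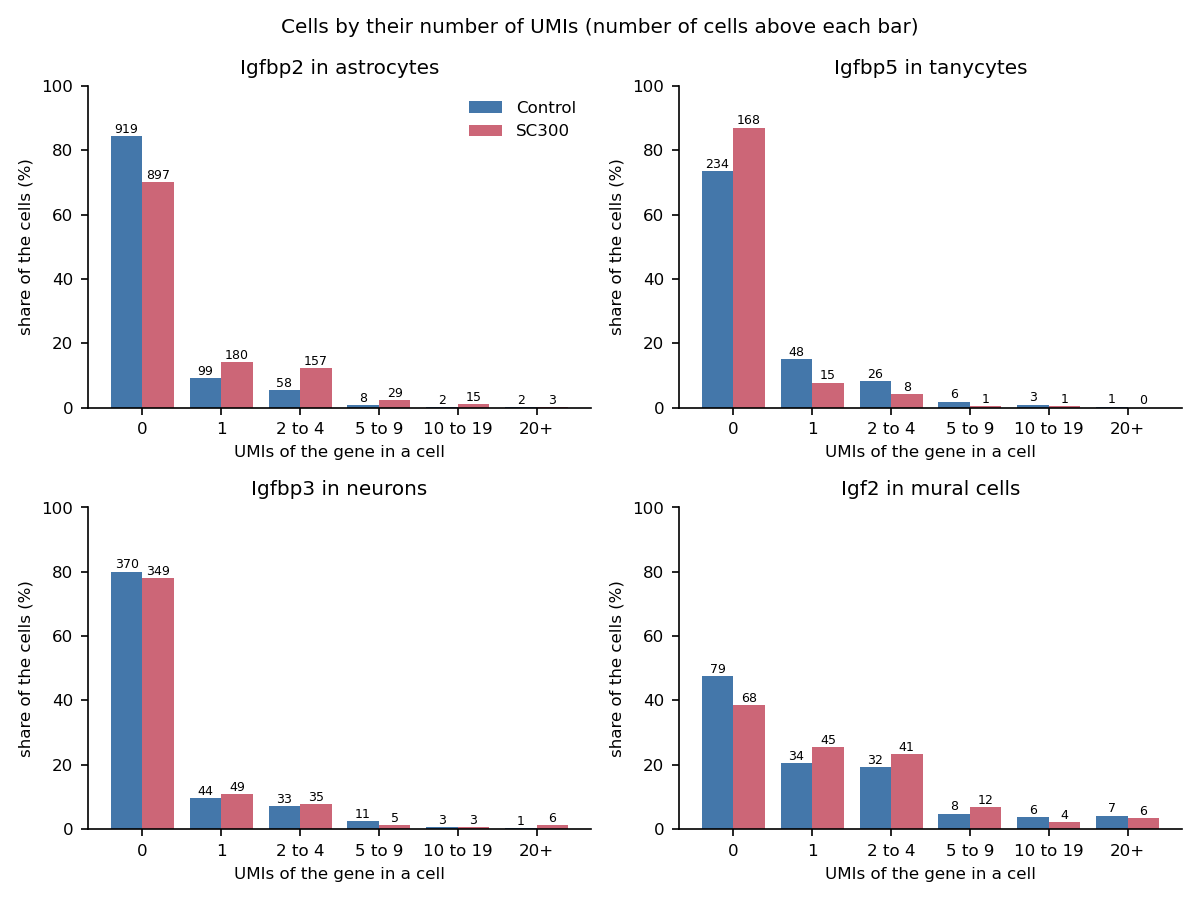
Share of cells in percent (vertical axes) by their number of UMIs of *Igfbp2* in astrocyte-like, *Igfbp5* in tanycyte-like, *Igfbp3* in neuron-like and *Igf2* in mural cell-like cells, with Control in blue, SC300 in red and the number of cells above each bar. *Igfbp2* astrocytes were more frequent in SC300 at every number above 0, whereas the *Igfbp3* neurons differed mainly at 20 UMIs or more, with 1 Control and 6 SC300 cells.

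*Igfbp3*, the main carrier of IGF in blood, had its highest level in macrophage-like cells, with 319 CPM in Control and 485 CPM in SC300 (0.60, 0.20 to 1.03). This ratio was close to the threshold and was not past it in 5 of 11 alternatives, with a lowest value of 0.19 when every cell was weighted alike. Mural cell-like cells had 36.1 and 28.4 CPM and endothelial cell-like cells 20.8 and 26.8 CPM, and neither was past 1.5-fold. Of all genes in endothelial cells, 5.64% were. In microglia-like cells, by contrast with the macrophages, only 0 and 2 UMIs were counted. Neuron-like cells held most of the *Igfbp3* UMIs, 275 in Control and 683 in SC300, or 22.7 and 54.3 CPM (1.26, 1.05 to 1.47), where 5.23% of all genes were past 1.5-fold.

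The neuronal *Igfbp3* difference lay in a handful of cells. Neurons with any *Igfbp3* UMI were 19.9% of Control (16.4 to 23.8%) and 21.9% of SC300 neurons (18.2 to 26.0%), at median depths of 25070 and 24230 UMIs, and 4.19% and 2.72% after thinning. In SC300, 6 neurons with 20 or more UMIs held 468 of the 683 UMIs, and the highest alone held 201, whereas 1 Control neuron with 22 UMIs was in that range. The cut was made on *Igfbp3* itself, so that a lower SC300 level in the other neurons was partly built in. These other neurons had 20.9 CPM in Control and 17.5 CPM in SC300. Without the 3 highest cells of each library the ratio was 0.56, no longer past 1.5-fold. Of the 6 SC300 cells, 5 had UMIs of *Slc32a1*, the vesicular GABA transporter. GABAergic neurons (*Slc32a1* and no *Slc17a6* UMI, 240 and 222 cells) had 17.8 and 89.8 CPM, and glutamatergic neurons (*Slc17a6* and no *Slc32a1* UMI, 140 and 148 cells) 30.6 and 27.8 CPM (−0.14, −0.49 to 0.21).

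*Igfbp4*, an inhibitor of IGF action that is cleaved by pappalysins, was past 1.5-fold in each of its 4 classes with enough UMIs, higher in 3 and lower in 1. Over all genes, 33.6% were in macrophage-like, 10.2% in tanycyte-like, 5.23% in neuron-like and 4.09% in oligodendrocyte precursor-like cells. Macrophage-like cells had 93.2 and 247 CPM (1.40, 0.70 to 2.19), neuron-like cells 1.65 and 3.18 CPM (0.95, 0.14 to 1.80) and oligodendrocyte precursor-like cells 14.4 and 22.6 CPM (0.65, 0.00 to 1.32). The last of these was no longer called at a clustering resolution of 1.0 (0.64) and with cells above 20% mitochondrial UMIs left out (0.61). Tanycyte-like cells had 11.7 CPM in Control and 3.90 CPM in SC300 (−1.58, −2.69 to −0.59), from 41 and 11 UMIs. The counts were small in the last 3 classes, between 11 and 56 UMIs per library. In macrophage-like cells there were 19 UMIs in 7 of 24 Control cells and 114 UMIs in 29 of 53 SC300 cells, of which 1 cell held 19. Tanycytes held 35 of 41 UMIs in Control and 8 of 11 in SC300 in cells with 2 or more *Frzb* and *Fgf10* UMIs. Of the 40 SC300 neuron UMIs, 15 were in the 6 neurons with 20 or more *Igfbp3* UMIs, and the other neurons had 1.66 and 2.04 CPM. Microglia-like cells had no *Igfbp4* UMI among 527 and 507 cells, and the exact 95% intervals reach up to 0.698% and 0.725% of cells with a UMI.

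*Igfbp6*, which prefers IGF-II, was the scarcest member, with 50 UMIs in Control and 78 in SC300. Stromal (fibroblast)-like cells had 99.4 and 85.5 CPM, from 10 and 33 UMIs. Neuron-like cells had 2.72 and 3.02 CPM (0.15, −0.56 to 0.87), and these UMIs came from 8 of 462 Control and 12 of 447 SC300 neurons. Both libraries had 0 UMIs in 7 of the other classes.

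*Igfbp7*, a secreted protein of vessel walls that binds IGF with low affinity, was the member with the most UMIs, 29683 and 31768. Every one of the 166 Control and 176 SC300 mural cell-like cells had a UMI, and the level was 5491 and 4746 CPM (−0.21, −0.24 to −0.18). Endothelial cell-like cells stood at 3306 CPM in both libraries (0.00, −0.05 to 0.05). Tanycyte-like cells followed among the glia, with 531 and 423 CPM (−0.33, −0.44 to −0.22), and astrocyte-like cells had 158 and 131 CPM. Newly formed oligodendrocyte-like cells had 137 and 182 CPM (0.40, 0.17 to 0.64) and mature oligodendrocyte-like cells 32.0 and 32.3 CPM, and 5.08% and 4.72% of all genes were past 1.5-fold in these classes. Within the mature class, the cluster led by *Hapln2* and *Klk6* had 35.6 and 30.1 CPM (−0.24, −0.52 to 0.03). The cluster with *Mag* and *Opalin* among its leading genes had 19.2 and 37.0 CPM (0.95, 0.38 to 1.55), from 33 and 123 UMIs. The small intervals show what the depth allowed for an abundant member: of 12 classes with enough UMIs, 11 were not past 1.5-fold.

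The exception for *Igfbp7* was the oligodendrocyte precursor-like class, at 31.5 and 47.2 CPM (0.59, 0.15 to 1.03). A single SC300 cell held 66 of its 117 UMIs, and without the 3 highest cells of each library the ratio was −0.49. The dividing cluster of this class, led by *Nusap1* and *Top2a*, had 2 UMIs in Control and 70 in SC300, while the other cluster had 70 and 47. The cell with 66 UMIs was in the dividing cluster and held most of its SC300 UMIs. Summed endothelial markers in the class were 18.8 CPM in Control and 136 CPM in SC300, with *Cldn5* at 13 and 153 UMIs.

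Over all members, 46 of the 117 pairs of gene and class reached 50 UMIs, as the plot of ratios shows. Of these, 5 were lower and 10 were higher in SC300 past 1.5-fold, and the median ratio was 0.06. Over all genes and classes, 3.41% of 89696 pairs were lower and 2.98% were higher. That pooled share is not matched to the classes of the members. Macrophage-like cells gave 3 of the calls, and 33.6% of all genes were past 1.5-fold there. Tanycyte-like and erythroid-like cells gave 2 each, with 10.2% and 8.78% of all genes. The members were also chosen with earlier results of these data known, so that the counts cannot be read as an excess over all genes. By role, 3 of 10 ligand pairs were higher and none was lower, none of 3 receptor pairs was past 1.5-fold, and of 33 binding-protein pairs 5 were lower and 7 were higher. Of the 15 calls, 4 held in every alternative that gave a ratio of levels: *Igfbp2* in astrocyte-like cells, *Igfbp5* in tanycyte-like cells, and *Igf1* and *Igfbp4* in macrophage-like cells. The macrophage-like class gave such a ratio in only 11 alternatives, against 12 for the astrocyte-like and tanycyte-like classes. Thinned shares of cells are not such ratios. In macrophage-like cells they were 43.5% and 53.8% for *Igf1* and 21.7% and 25.0% for *Igfbp4*, with overlapping intervals for each gene. A higher level in a class cannot be told apart from a larger share, within that class, of cells that carry the gene.

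**Figure D4:**
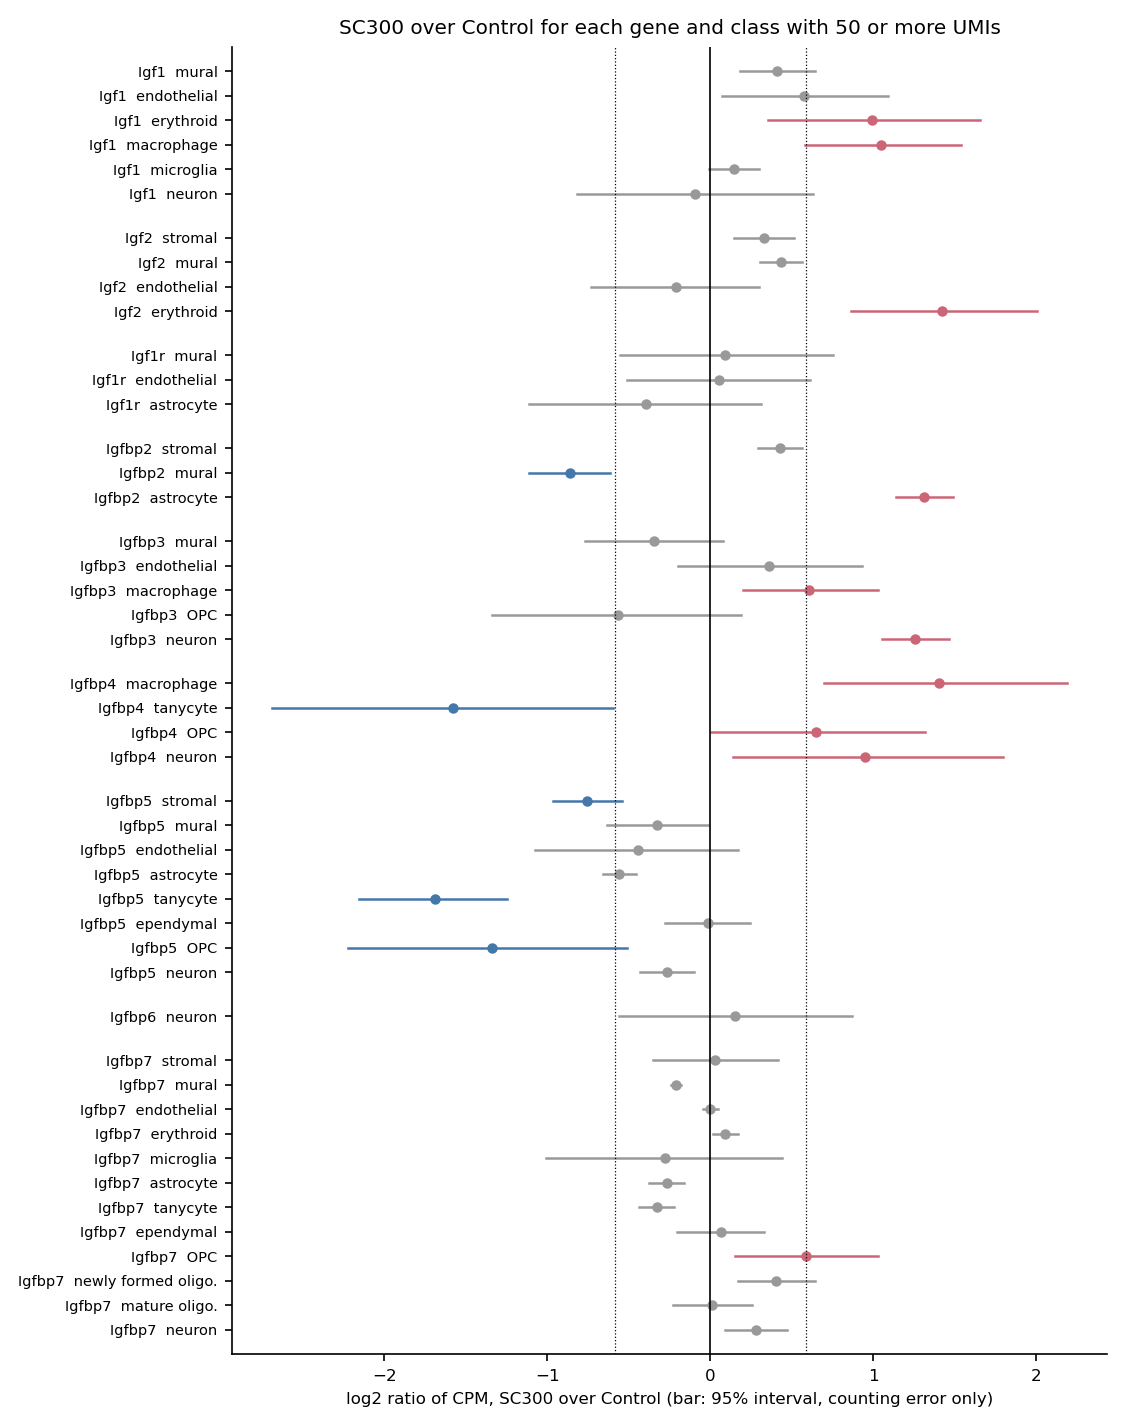
Log2 ratio of SC300 over Control (horizontal axis) for the 46 pairs of gene and class with 50 UMIs or more; points are ratios, bars 95% intervals that cover counting error only, red and blue mark ratios past 1.5-fold higher and lower in SC300, grey the others, and dotted lines 1.5-fold. The *Igfbp5* ratios all lay at or left of 0, and *Igfbp7* ratios clustered near 0 with short bars.

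The classes that supplied each gene's UMIs also shifted between the libraries. Stromal cells supplied 25.5% of the *Igf2* UMIs in Control and 47.6% in SC300, and mural cells 63.1% and 46.0%. For *Igfbp4* the share of macrophage-like cells was 12.3% and 42.9% and that of tanycyte-like cells 26.5% and 4.14%. For *Igfbp5* astrocytes supplied 1850 of 3701 and 1400 of 3176 UMIs, and for *Igfbp7* mural and endothelial cells together supplied the larger part in both libraries (47.7% and 26.7% in Control, 53.7% and 24.1% in SC300).

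**Figure D5:**
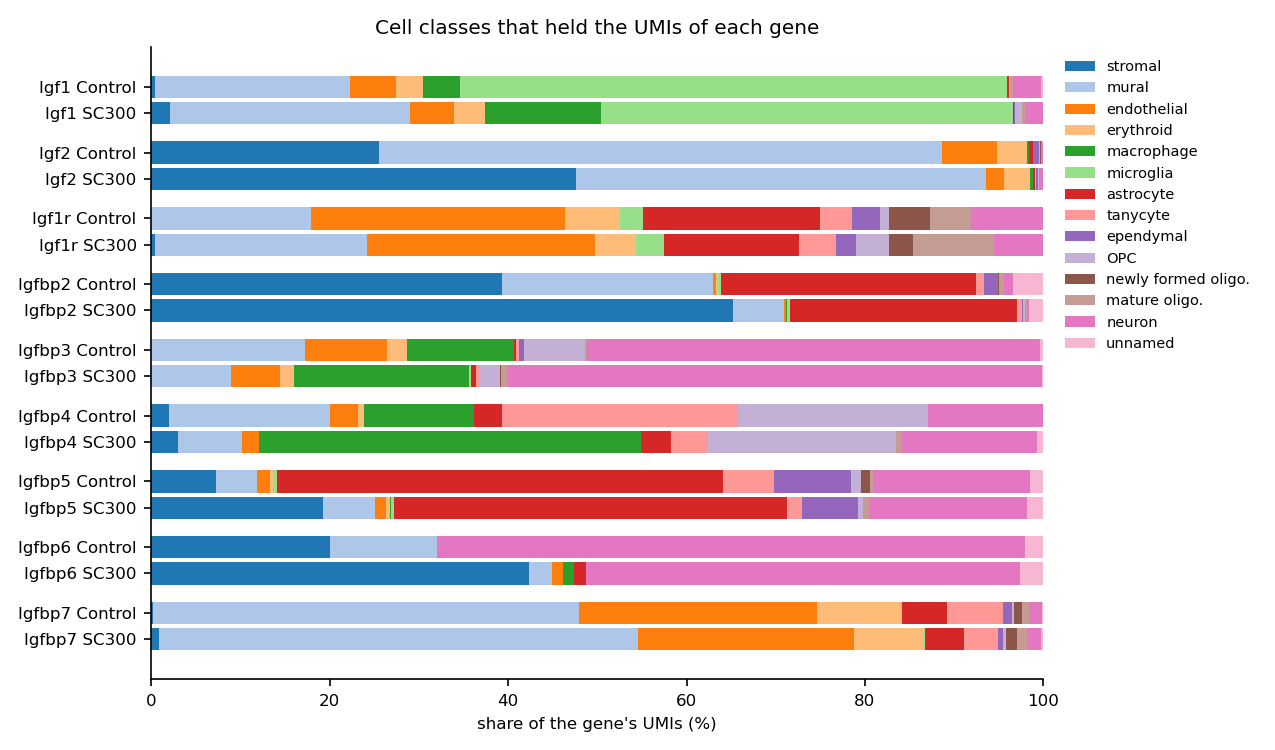
Share of each gene's UMIs in percent (horizontal axis) that came from each cell class (colours), with 1 bar per gene and library. The stromal segment of *Igf2* (25.5% and 47.6%) and *Igfbp2* (39.4% and 65.2%) and the macrophage segment of *Igfbp4* (12.3% and 42.9%) were wider in SC300.

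Across the 13 classes, both libraries summed, the levels of some members followed one another. The Pearson correlation of log2(CPM + 1) was 0.83 for *Igfbp2* and *Igfbp5*, 0.82 for *Igf1r* and *Igfbp7* and 0.77 for *Igf2* and *Igfbp2*, and −0.34 for *Igf1r* and *Igfbp4*. Among 12074 genes, those closest to the members by the same measure were *Stat6* for *Igf1* (0.97), *Twist1* for *Igf2* (0.99), *Nrep* for *Igf1r* (0.93), *Fndc1* for *Igfbp2* (0.99), *Lat* for *Igfbp3* (0.83), *Spc24* for *Igfbp4* (0.88), *Wnt5a* for *Igfbp5* (0.95) and *St6galnac2* for *Igfbp7* (0.95). These are descriptions over 13 points that share 2 libraries, and the small stromal and macrophage classes weigh as much as the large ones.

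A further list of pathway genes was read in the same way. Of 37 listed genes 35 were matched by name, and 201 pairs of gene and class had 50 UMIs or more, of which 3 were lower, 7 were higher and 191 were not past 1.5-fold (median ratio −0.01). Over all genes and classes, 3.41% of pairs were lower and 2.98% were higher, so that the share of lower pairs was under that background and the share of higher pairs close to it. *Socs2*, a feedback inhibitor of growth hormone signalling, was higher in 3 of its 6 classes with 50 UMIs or more. Its levels were 5.60 CPM in Control and 9.49 CPM in SC300 astrocyte-like cells (0.76), 12.4 and 19.8 CPM in mural cell-like cells (0.67) and 4.99 and 7.66 CPM in mature oligodendrocyte-like cells (0.62). In neuron-like cells *Foxo1*, a transcription factor held back by AKT, was at 4.54 and 8.34 CPM (0.88) and *Insr*, the insulin receptor, at 4.37 and 6.59 CPM (0.59). *Irs2*, an adaptor of both receptors, was at 32.5 and 18.1 CPM in tanycyte-like cells (−0.84). The other lower calls were *Pik3r1* in macrophage-like cells (−1.39), where 33.6% of all genes were past 1.5-fold, and *Pdpk1* in microglia-like cells (−0.59). The other higher calls were *Akt1* in erythroid-like cells (0.60) and *Rptor* in newly formed oligodendrocyte-like cells (0.89).

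Of the other listed genes, those with the highest levels in a class included a further binding protein, a protease and a receptor. *Igfbpl1* was found in tanycyte-like cells at 304 and 296 CPM and in ependymal cell-like cells at 258 and 270 CPM. *Htra1*, a protease that cleaves binding proteins, was at 552 and 635 CPM in astrocyte-like cells. *Igf2r*, the receptor that clears IGF-II, was at 84.4 and 73.1 CPM in ependymal cell-like cells and 38.0 and 44.2 CPM in mural cell-like cells. None of the 4, 10 and 9 pairs of these genes was past 1.5-fold.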

How the data were processed

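Single-cell 3′ libraries of 1 Control and 1 SC300 pool were analysed from the matrices of raw UMI counts that the authors deposited, which were made, per the file headers and the submitters' processing notes, with Cell Ranger 3.0.1 against an Ensembl rat transcriptome. The matrices held 4488 Control and 4524 SC300 barcodes with 52004789 and 57013099 UMIs. Barcodes with 200 or more detected genes were kept and clustered in Seurat 5.3.0 (R 4.3.3) with 1990 variable genes, 30 principal components and a resolution of 0.7. A cluster was named when at least 3 of a list's markers reached 10 CPM and exceeded their level in the other clusters by 2-fold. *Foxj1*, *Lhfpl3*, *Pecam1*, *Hba-a1*, *Pappa* and *Irs4* were not used here. One cluster (309 and 307 cells), led by mitochondrial genes, was left unnamed and out of the classes. Median mitochondrial share was 11.4% and 12.4%, and doublets called by Scrublet (scanpy 1.11.5) were kept.

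CPM were computed from UMIs summed per class and library, with exact Poisson intervals, and ratios with exact conditional binomial intervals (scipy 1.17.1). Shares of cells have exact Clopper-Pearson intervals. All intervals are at 95% and cover counting error only. Thinned shares used 2000 UMIs per cell, with shallower cells left out. With 1 library per group, no p-value was computed. The ratio call was tested on Poisson counts simulated from the astrocyte-like sums, with changes larger than 1.5-fold. These counts had no extra spread between cells or rats, so the test does not cover genes whose UMIs lie in few cells. The named genes are the 9 members in every class, the pathway genes with the highest levels or past 1.5-fold, and the 3 genes most alike each member with 200 UMIs or more, of which the first is given. The members, lists and splits were chosen with earlier results of these data known. Alternatives changed the genes and resolution of the clustering, the gating, the mitochondrial limit, doublets, scaling, cell weights, the minimum count, depth and the highest cells. Upstream sequences came from RefSeq (GRCr8), whose build is not that of the counts, and 9 of 9 members matched by symbol.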

Additional observations from a re-analysis of the deposited data

Results flagged for a closer look

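For 2 genes, classes differed from one another in the direction of the ratio past 1.5-fold, and the difference between the classes was not tested. *Igfbp2* was lower in SC300 in mural cell-like cells (log2 ratio −0.86) and higher in astrocyte-like cells (1.31). The mural ratio was −0.36, not past 1.5-fold, without the 3 highest cells of each library, and 293 of 308 and 226 of 236 UMIs came from cells with fibroblast genes. *Igfbp4* was lower in SC300 in tanycyte-like cells (−1.58) and higher in macrophage-like cells (1.40), oligodendrocyte precursor-like cells (0.65) and neuron-like cells (0.95). Apart from the minimum count, the call in precursors was lost in 2 of 12 alternatives. At a minimum of 100 UMIs, precursors (89 *Igfbp4* UMIs over both libraries), neurons (60) and tanycytes (52) had too few for a call. Neurons with under 20 *Igfbp3* UMIs had 1.66 and 2.04 CPM of *Igfbp4*.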

How the results depend on the processing

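With 1 pool per group, the error between rats is unknown, and depth limits the ratios of *Igf1r*, *Igfbp4* and *Igfbp6*. No paired analysis was possible because each group has 1 library. The 5 lower member ratios became 1 without the 3 cells with the most UMIs in each library and 3 at a minimum of 100 UMIs. Higher ratios numbered 10 and 7 in these settings, but the 10 without the highest cells were not the same pairs as before. *Igfbp3* in neurons (0.56), *Igfbp4* in neurons (too few UMIs) and *Igfbp7* in precursors (−0.49) lost their call, while *Igfbp5* in stromal cells was among the pairs newly called higher. Without those cells, *Igfbp4* in tanycytes (−2.27) and *Igfbp5* in precursors (−0.93) had too few UMIs for a call. *Igf1* and *Igf2* in erythroid-like cells turned to −0.20 and −1.20 when genes that differed between the libraries were left out of the clustering, with 2 and 1 UMIs left in the class. Without the 3 highest cells, *Igfbp5* in stromal cells turned to 4.93. *Igfbp7* in oligodendrocyte precursor-like cells turned to −0.58 with the members in the clustering, −0.57 without library-differing genes, −0.61 at resolution 0.4, −0.39 with cells gated by markers, −0.55 with cells weighted alike and −0.49 without the 3 highest cells. After thinning, the log2 ratio of the share of neurons with an *Igfbp3* UMI turned to −0.62 and that of precursors with an *Igfbp5* UMI to 0.72, the latter from 3 of 341 and 5 of 344 cells. The cause was not tested. Of the other values under alternatives, 505 moved by less than their interval or kept their call, and 48 moved. Leaving out mural cells with fibroblast genes, an alternative chosen after seeing the data, turned *Igf2* in mural cells to −0.63. Median-of-ratios scaling shifted the stromal class by −0.19 on the log2 scale.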
